A study of Mus musculus with 474 samples.

Results

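The 10 genes described here, Mki67, Top2a, Cdk1, Ccnb1, Ccnb2, Ccna2, Birc5, Bub1, Aurkb and Plk1, are mitosis genes, and they were picked by symbol from a table of 20612 genes measured in mouse skeletal muscle. All 10 symbols were in the table, and all 10 were among the 18823 genes that passed a filter on low counts. RNA came from the gastrocnemius, a calf muscle, of Diversity Outbred mice. This stock descends from 8 inbred founder strains and is outbred, which gives each animal a genotype of its own. Each animal gave 1 library, and 49.6% were labelled female, the others male. A number in the title, read here as the outbred generation, was 17, 18, 19, 21 or 23, and the study's methods do not name every one of these as a generation. The 5 female groups held 45 to 49 animals and the 5 male groups 46 to 50. Every animal ate a diet high in fat and sugar, labelled as 45 percent fat, from 4 weeks of age and was harvested at 22 weeks, so no group on another diet was compared. RNA was taken from whole pulverised tissue, so that every cell type in the sampled piece is part of each library.

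Muscle fibres are post-mitotic, which means that their nuclei no longer divide. Dividing cells in adult muscle are found among its other residents, such as satellite cells (the muscle stem cells), fibro-adipogenic progenitors, endothelial cells and leukocytes. The mitosis genes are switched on together late in the cell cycle and are silent in resting cells, so they are widely read as a mark of dividing cells. Their promoters are known for 2 kinds of short element, the cell cycle genes homology region (CHR, TTTGAA or TTTAAA), which binds the DREAM and MuvB complexes, and the CCAAT box, which binds the factor NF-Y.

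The promoters of 4 members are shown because Mki67 and Top2a were the most closely correlated pair in the muscle libraries, while Plk1 and Ccnb2 had the lowest correlations with the other members. Each line is the stretch of 150 bases just before the gene's start, written 5′ to 3′ on the gene's own strand, from RefSeq on GRCm38.p6. Capitals mark a CHR or CCAAT match on either strand, so that a match on the other strand appears as its reverse complement.
Mki67, chr7:135716380-135716529, minus strand: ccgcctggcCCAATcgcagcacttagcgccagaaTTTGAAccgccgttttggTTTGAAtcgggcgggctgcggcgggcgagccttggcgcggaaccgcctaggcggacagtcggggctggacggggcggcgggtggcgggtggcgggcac
Top2a, chr11:99024190-99024339, minus strand: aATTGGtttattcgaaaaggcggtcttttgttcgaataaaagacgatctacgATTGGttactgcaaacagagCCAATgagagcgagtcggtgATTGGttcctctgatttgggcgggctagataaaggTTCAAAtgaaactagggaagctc
Plk1, chr7:122159285-122159434, plus strand: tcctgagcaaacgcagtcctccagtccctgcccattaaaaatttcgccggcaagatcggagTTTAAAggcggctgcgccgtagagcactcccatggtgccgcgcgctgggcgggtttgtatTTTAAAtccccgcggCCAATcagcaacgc
Ccnb2, chr9:70421555-70421704, minus strand: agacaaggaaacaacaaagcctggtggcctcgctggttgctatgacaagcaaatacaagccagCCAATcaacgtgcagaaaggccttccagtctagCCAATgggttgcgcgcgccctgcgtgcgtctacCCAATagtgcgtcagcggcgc

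Of the 10 members, 8 had a promoter in the RefSeq table, and Ccna2 and Aurkb had none. In the 250 bases before the start, 7 of these 8 promoters (87.5%) held a CHR match, against 25.2% of 32851 mouse promoters. A CCAAT match was present in 7 of 8 (87.5%), against 33.8% of all promoters, and both motifs were present in 6 of 8 (75%), against 8.78%. At least 2 CCAAT matches were present in 6 of 8 (75%), against 10.1% of all promoters. Among 37 promoters of 35 other mitosis genes, 40.5% held a CHR match, 70.3% a CCAAT match and 37.8% both. In Mki67 the CHR match nearest the start began 98 bases before it, and 3 CCAAT matches lay farther upstream. In Top2a the nearest CHR match began 23 bases before the start, and the nearest of 6 CCAAT matches 58 bases before it. Plk1 had CHR matches at 89 and 29 bases and a single CCAAT match at 14 bases, whereas the 3 CCAAT matches of Ccnb2 lay at 87, 54 and 21 bases and its single CHR match farther upstream. Bub1 had CCAAT matches and no CHR match, and Birc5 had a CHR match and no CCAAT match. These matches describe letters in a window, and binding was not measured.

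The members were measured at very low levels, given here as CPM, the count scaled to a common library size, on library totals scaled by the TMM method. Total counts ran from 35.9 M to 165.7 M per library, with a median of 79.3 M. The counts are of read ends, so that a fragment can add up to 2, and a count of 3 corresponded to 0.0377 CPM in the median library. The muscle genes Acta1, Ckm and Myh4 had medians of 21404, 13148 and 69547 CPM, and none fell below 6809 CPM in any library. The labels were checked with the sex-linked genes Xist and Ddx3y, whose medians were 226.7 and 0 CPM in females and 0.122 and 86.9 CPM in males. In 5 libraries, 3 labelled female and 2 male, these genes went against the label, and without these 5 the count of members lower in males, given below, was 10 of 10 as with them. The B cell markers divided the libraries, as set out beside the highest values below, and the differences by sex are given over all libraries and without those of high B cell level.

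Gene positions are on GRCm38, as in the deposited table. Mki67, on chromosome 7 from 135689784 to 135716361 on the minus strand, codes for the Ki-67 protein that coats mitotic chromosomes. Its level was 0 CPM in 1 library, had a median of 0.692 CPM and reached 29.5 CPM. Top2a, on chromosome 11 from 98992943 to 99024189 on the minus strand, codes for the topoisomerase that untangles sister chromatids. Its level ran from 0.0225 through a median of 0.383 to 16.3 CPM. The highest library was at 42.7 times the median for each gene, and the next at 30.6 times for Mki67 and 27.4 times for Top2a.

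Cdk1 is the kinase that drives entry into mitosis, and Ccna2, Ccnb1 and Ccnb2 are cyclins that activate it. Cdk1, on chromosome 10 from 69335146 to 69352938 on the minus strand, had a median of 0.0906 CPM and a highest value of 2.18 CPM, and 36 libraries had no count. Ccnb1, on chromosome 13 from 100778650 to 100786570 on the minus strand, had a median of 0.0505 CPM and a highest value of 2.78 CPM, and 20.9% of libraries had no count. Ccnb2, on chromosome 9 from 70407692 to 70421547 on the minus strand, had a median of 0.150 CPM and a highest value of 1.45 CPM, and 5 libraries had no count. Ccnb2 had the highest library at 9.67 times its median, whereas that of Ccnb1 was at 54.99 times. The latter rested on 1 library, since the next value of Ccnb1, 1.06 CPM, was at 21.1 times the median, while that of Ccnb2 was at 6.81 times. Ccna2, on chromosome 3 from 36564865 to 36572150 on the minus strand, had a median of 0.267 CPM and a highest value of 3.89 CPM. Its exons overlap those of Exosc9 on the other strand, and 94.1% of libraries had a count that was not whole, so its counts may hold reads of that gene and are uncertain.

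Birc5 (survivin) and Aurkb (Aurora B kinase) are subunits of the chromosomal passenger complex, which corrects faulty attachments of chromosomes to the spindle. Birc5, on chromosome 11 from 117849251 to 117855743 on the plus strand, had a median of 0.100 CPM and a highest value of 2.12 CPM, with 28 libraries at 0. Aurkb, on chromosome 11 from 69045647 to 69051664 on the plus strand, had a median of 0.0708 CPM and a highest value of 1.98 CPM, with 56 libraries at 0. Bub1 is a kinase of the spindle assembly checkpoint and was the sparsest member. On chromosome 2 from 127801122 to 127831865 on the minus strand, it had a median of 0.0256 CPM and a highest value of 1.22 CPM, and 37.1% of libraries had no count. Plk1 is the Polo-like kinase that acts from mitotic entry to exit. On chromosome 7 from 122159439 to 122169873 on the plus strand, it had a median of 0.210 CPM and a highest value of 2.19 CPM. Exons of Plk1 overlap those of Gm44985 on the other strand, and a copy named Ccnb2-ps is in the table beside Ccnb2, so both have some uncertainty in their counts. Counts were not whole in 44.1% of libraries for Birc5, 29.3% for Plk1 and 0% for Ccnb2, so those of Birc5 are uncertain too. A count of 0 limits a gene only to under about 3 fragments in that library, each of which can add up to 2 read ends, and such limits cover counting error alone.

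Per kilobase of exon, the order of median levels was Ccnb2 (0.0982 CPM per kb), Plk1 (0.0955), Mki67 (0.0688), Ccna2 (0.0655), Top2a (0.0425), Birc5 (0.0295), Aurkb (0.0240), Cdk1 (0.0184), Ccnb1 (0.0120) and Bub1 (0.00588). Neighbours in this order overlapped widely over the libraries. The interquartile range was 0.0604 to 0.149 CPM per kb for Ccnb2, 0.0636 to 0.138 for Plk1 and 0.0444 to 0.107 for Mki67, for example. Mki67 and Top2a were therefore first by CPM partly through their long exons, of 10.1 and 9.01 kb.

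**Figure D1:**
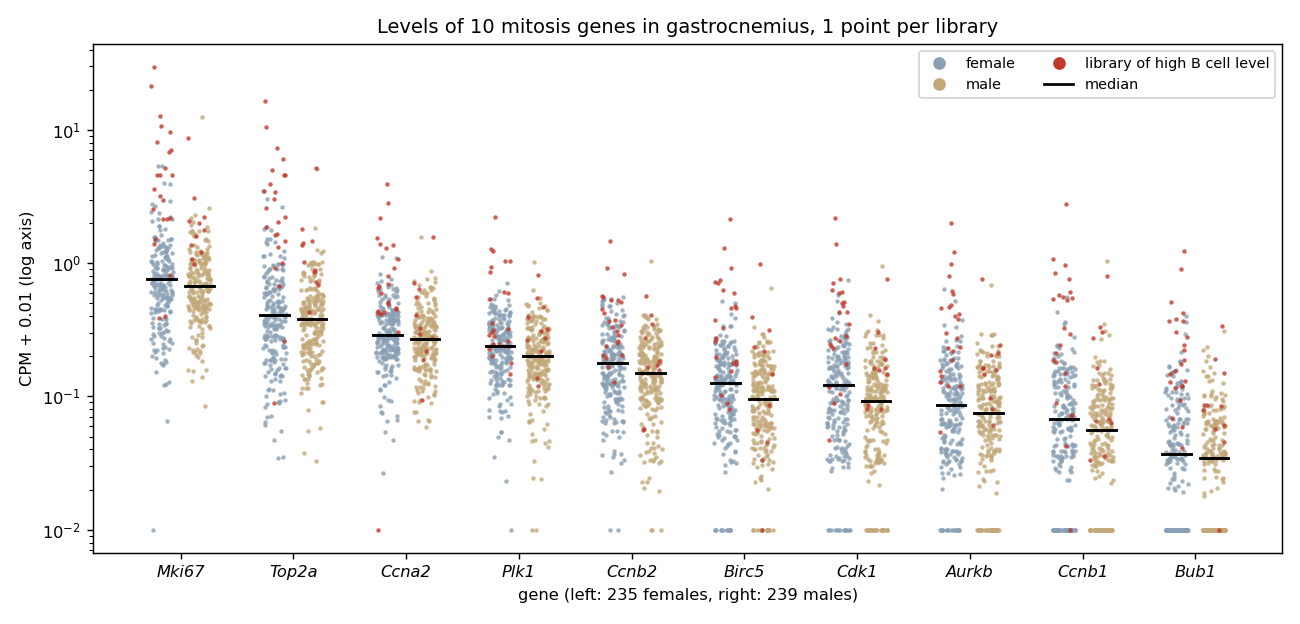
Level of each member in CPM, with 0.01 added, on a log axis, for female (left) and male (right) libraries, with 1 point per library and a black bar at the median. The female and male clouds overlap for each gene, and most of the highest points are red, the 35 libraries of high B cell level.

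Of the 10 highest libraries of each gene, 6 to 9 had a high B cell level, as defined in the next paragraph. For 9 of the 10 genes, 8 of the 10 highest libraries were female, and for Bub1 it was 9. The 10 highest libraries held 23.9% of the summed CPM of Ccnb1, 23.8% of that of Mki67 and 22.6% of that of Top2a, but only 8.80% of that of Ccnb2. The highest of all was the female DO191 of generation 18, with Mki67 at 29.5 CPM, Top2a at 16.3 CPM, and the highest value of every other member. That library also had Cd79a at 47.5 CPM, Cd3e at 17.1 CPM and Ptprc at 195.5 CPM. Cd79a, a chain of the B cell receptor complex, marks B cells, Cd3e marks T cells, and Ptprc (CD45) is carried by leukocytes as a whole. The female DO237 of generation 19 followed, with Mki67 at 21.2 CPM and Cd79a at 24.6 CPM, and then the female DO345 of generation 21, with Mki67 at 12.7 CPM and Cd79a at 28.9 CPM.

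B cell markers divided the libraries into 2 separate sets. The B cell level is the mean standardised residual, after sex and generation, of 9 B cell genes. It lay between 1.03 and 4.17 in 35 libraries (7.38%) and between -1.14 and 0.666 in all others, with none between, and the others are called the libraries of low B cell level below. Cd79a had a median of 7.47 CPM in the 35 and 0.0556 CPM in those of low B cell level, and Cr2, a complement receptor of B cells and follicular dendritic cells, had medians of 8.03 and 0.0283 CPM. Cd3e had medians of 3.55 and 0.117 CPM. Ighm, the heavy chain of IgM, was abundant in both sets, with medians of 92.6 and 56.4 CPM. Over whole lists, the summed level of 10 T cell and natural killer cell genes ran from 0.945 to 163.2 CPM in the 35, with a median of 28.3, and from 0.218 to 6.84 CPM in those of low B cell level, with a median of 0.844. The summed level of the 9 B cell genes, in which Ighm weighs most, ran from 25.4 to 604.9 CPM in the 35 and from 2.34 to 530.6 CPM in those of low B cell level. The 35 comprised 24 females (10.2% of them) and 11 males (4.60%; Fisher's exact test, 2-sided, p = 0.0223), and were spread over generations and blocks of library number, with 5 to 10 per generation and 6 to 8 per block. The division at 1 was set after the values were seen, and it is a description of these libraries and not a group of the study. Whether lymphoid tissue, such as a lymph node, was part of the sampled piece in these libraries was not tested.

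All 10 members had higher medians in the 35 libraries than in those of low B cell level. Mki67 ran from 0.376 through a median of 2.56 to 29.5 CPM in the 35, and from 0 through 0.660 to 12.5 CPM in those of low B cell level. Top2a had medians of 1.66 and 0.359 CPM, Ccnb1 of 0.234 and 0.0466 CPM, and Bub1 of 0.137 and 0.0234 CPM. Plk1 was least apart, with medians of 0.304 and 0.203 CPM. The ranges of both sets overlapped for each of the 10 genes. The 35 also differed in other cell markers. The summed level of brown adipocyte genes had medians of 16.05 CPM in the 35 and 1.49 CPM in those of low B cell level. For white adipocyte genes these were 566.2 and 254.5 CPM. Schwann cell genes went the other way, at 89.1 and 124.95 CPM, as did tendon cell genes, at 298.7 and 342.8 CPM. Ranges overlapped in each list, and the part of these cells in the members' levels was not tested. In bulk tissue, fewer cells of a type and less RNA per cell cannot be told apart.

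Not every high library had a high B cell level. The male DO084 of generation 17 had Mki67 at 12.5 CPM, Top2a at 5.10 CPM and the highest Ccnb2 of any male, at 1.02 CPM, with Cd79a at 0.0994 CPM. Its skin epithelium markers were high, with Krt10 at 68.3 CPM and Dsp at 117.3 CPM, and their part in its values was not tested. The summed level of both skin genes had a median of 1.46 CPM in those of low B cell level. The females DO340 and DO472 had Mki67 at 5.35 and 5.32 CPM with Cd79a at 0.0523 and 0.154 CPM, but Ighm was at 297.3 CPM in DO472, above the median of either set, and at 21.6 CPM in DO340. The B cell level was 0.42 in DO472 and -0.42 in DO340. Neither had high skin markers, with Krt10 at 1.40 and 1.46 CPM.

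**Figure D2:**
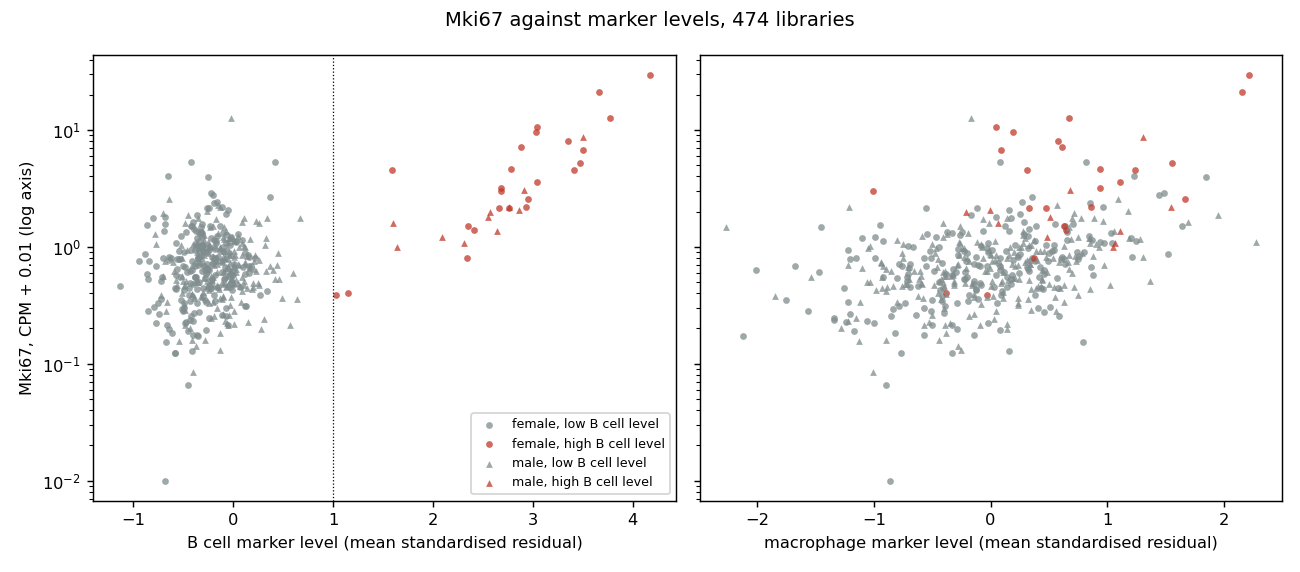
Mki67 in CPM, with 0.01 added, on a log axis against the B cell (left) and macrophage (right) marker level of each library, with circles for females and triangles for males. The 35 red libraries stand to the right of the dotted line at 1 with a gap before the grey libraries of low B cell level, and most of the highest Mki67 values are among them.

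Between the sexes, each of the 10 genes was lower in males than in females when all libraries were used. The question was asked because the study treats sex as a covariate of expression. The differences (male minus female, log2 scale) ran from -0.34 for Ccna2 to -0.85 for Bub1, with a median of -0.62. All 10 passed the quasi-likelihood test of edgeR with Benjamini-Hochberg adjustment over all genes tested. Of all genes tested, 55% differed between the sexes at this threshold, 30.6% lower and 24.4% higher in males, and the median difference over all genes was -0.01.

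Mki67 was 0.748 CPM in the median female (range 0 to 29.5) and 0.664 CPM in the median male (0.0754 to 12.5), and its means were 1.40 ± 2.78 and 0.853 ± 1.03 CPM (SD, over all females and all males). The fitted difference was -0.71 ± 0.12 (SE, adjusted p = 7.57e-08 by edgeR). Top2a had medians of 0.396 CPM in females (0.0245 to 16.3) and 0.372 CPM in males (0.0225 to 5.16), and a difference of -0.76 ± 0.13 (SE, adjusted p = 2.94e-08 by edgeR). For Mki67 the medians lay much closer than the means. For both genes the sexes overlapped except at the top, where the highest female values lay far above the highest male values.

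Of the kinase and its cyclins, Cdk1 had medians of 0.112 CPM in females (0 to 2.18) and 0.0826 CPM in males (0 to 0.935), and a difference of -0.66 ± 0.13 (SE, adjusted p = 2.22e-06 by edgeR). The 5 generations each had a higher median of Cdk1 in females than in males, as they did for Ccna2, while 3 of 5 did so for Mki67 and Top2a. Ccnb1 had medians of 0.0571 and 0.0463 CPM and a difference of -0.78 ± 0.17 (SE, adjusted p = 1.62e-05 by edgeR). Ccnb2 and Ccna2 differed least among the cyclins, by -0.36 ± 0.10 and -0.34 ± 0.09 (SE). Females had the higher median of each cyclin, and the ranges of the sexes overlapped.

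Among the genes of the spindle and the passenger complex, Birc5 had medians of 0.116 CPM in females (0 to 2.12) and 0.0861 CPM in males (0 to 0.977), and a difference of -0.58 ± 0.12 (SE, adjusted p = 6.77e-06 by edgeR). Aurkb had medians of 0.0759 and 0.0645 CPM and a difference of -0.57 ± 0.14 (SE). Bub1 had the largest fitted difference, -0.85 ± 0.18 (SE, adjusted p = 1.56e-05 by edgeR), with nearly equal medians of 0.0267 and 0.0246 CPM. Plk1 had medians of 0.227 CPM in females (0 to 2.19) and 0.191 CPM in males (0 to 1.00), and a difference of -0.35 ± 0.08 (SE, adjusted p = 9.50e-05 by edgeR).

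The sex difference shrank when the 35 libraries of high B cell level were left out. In the libraries of low B cell level, 3 of 10 members were lower in males at the same threshold, where 27.2% of all genes were lower and 24.6% higher in males. These were Cdk1 (-0.37 ± 0.13, adjusted p = 0.00837), Birc5 (-0.28 ± 0.11, adjusted p = 0.0248) and Plk1 (-0.21 ± 0.08, adjusted p = 0.0197; log2 ± SE, edgeR). Mki67 was at -0.12 ± 0.10 (adjusted p = 0.30, edgeR), Top2a at -0.18 ± 0.10 (adjusted p = 0.131, edgeR), and the median over the 10 members was -0.20. A share of 3 in 10 is near that of all genes. Without these libraries the medians of Mki67 were 0.680 CPM in females and 0.625 CPM in males, while among the 35 they were 4.07 CPM in 24 females and 1.77 CPM in 11 males. Of the B and T cell genes, 8 of 9 and 10 of 10 were lower in males over all libraries, and 3 of the 10 T cell genes were in those of low B cell level. For the B cell genes 0 of 9 were, which the choice of the 35 by the level of these same genes, with more females than males among them, largely fixes. Ighm was the exception among the B cell genes, at 0.62 ± 0.12 (log2 ± SE, adjusted p = 2.94e-06, edgeR), and it weighs most in the summed level of the list, whose median was 43.6 CPM in females and 76.96 CPM in males. The part of these cells in the members' values was not tested. With the levels of all 19 marker lists as covariates and all libraries, 0 of 10 members passed in edgeR, 1 had an unadjusted p under 0.05, and 18.5% of all genes were lower in males. In that fit Mki67 was at -0.00 ± 0.12 and Top2a at 0.02 ± 0.12, so that the sign of Top2a was not that of the other fit, while Cdk1 was at -0.38 ± 0.17 (log2 ± SE). The deposited variance-stabilised (VST) scores, which weigh high values less, gave 10 of 10 members lower in males by limma, where 31% of all genes were, and 4 of 10 without the 35 libraries, where 28.2% were. Cdk1, Ccnb2, Birc5 and Plk1 were those 4, with adjusted p of 0.00339, 0.0474, 0.0174 and 0.00823 by limma.

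**Figure D3:**
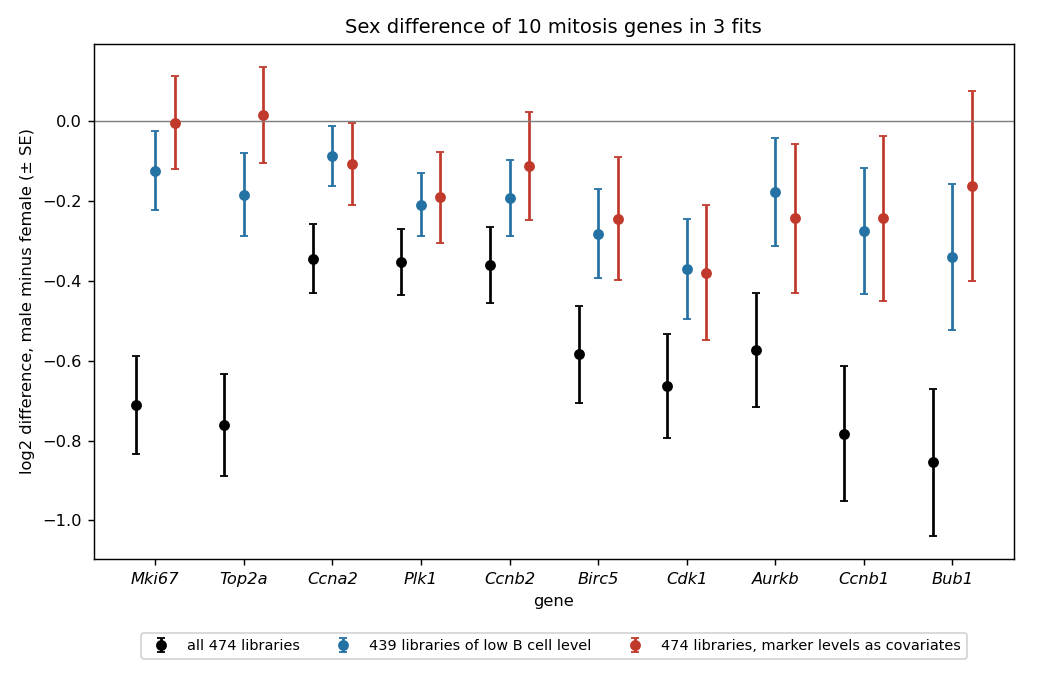
Log2 difference, male minus female, of each member with its standard error in 3 edgeR fits, from all libraries (black), from those of low B cell level (blue) and from all libraries with 19 marker levels as covariates (red). The black points run from -0.34 to -0.85, and the blue and red points lie nearer to 0.

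Between generations, the levels of the members did not pass the test. In edgeR 0 of 10 passed, against 7.56% of all genes, and 0 had an unadjusted p under 0.05. The lowest adjusted p was 0.261, for Plk1, whose medians were 0.227, 0.215, 0.202, 0.206 and 0.197 CPM in generations 17, 18, 19, 21 and 23. Mki67 had medians of 0.614, 0.615, 0.718, 0.670 and 0.810 CPM in the same order, and Top2a of 0.337, 0.376, 0.397, 0.351 and 0.444 CPM. These medians lay well within the spread between animals of a generation. By limma on the VST scores and by DESeq2, 0 of 10 passed as well, with 0 and 1 at an unadjusted p under 0.05.

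The sex difference was not shown to vary between generations. For the interaction of sex and generation 0 of 10 members passed in edgeR, against 0.531% of all genes, 0 had an unadjusted p under 0.05, and limma on the VST scores gave 0 of 10 at either threshold. Within single generations the difference of Mki67 ran from -1.12 in generation 18 to -0.32 in generation 17, and that of Top2a from -1.16 to -0.47. Within the 5 blocks of library number the difference of Mki67 ran from -0.88 to -0.33, and every member was at a lower fitted level in males in each of the 5 blocks.

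The library number in the titles, whose meaning the labels do not state, moved with the members when all libraries were used. Between the 5 blocks, 7 of 10 members passed in edgeR, against 47.4% of all genes, but by limma on the VST scores Aurkb alone passed (adjusted p = 0.00784). Aurkb had the widest fitted range, 0.96 on the log2 scale (adjusted p = 0.00184), with medians of 0.0425, 0.104, 0.0810, 0.0731 and 0.0663 CPM in blocks 1 to 5. Ccnb2, Ccna2 and Bub1 did not pass. Without the 35 libraries of high B cell level, Aurkb alone of the 9 members tested passed (adjusted p = 0.0170), against 46.4% of all genes. Bub1 was under the count filter in that set.

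Correlations over libraries were taken on log2 CPM after sex and generation, with permutation p adjusted over the 45 pairs. Counts this low add noise that weakens a correlation between sparse genes. Because the B cell level forms 2 separate sets, the values below are within each set, and the value over all libraries is given only for Mki67 with Top2a and as a median. In the libraries of low B cell level, 43 of 45 pairs had a correlation above 0 that passed, and the median Pearson r was 0.25. How many pairs of other genes of like level pass was not computed. Counts of pairs that pass, here and below, are therefore not read as particular to the members. Mki67 and Top2a were the closest pair, at r = 0.76 and Spearman rho = 0.75 (permutation p, adjusted 1.61e-05 and 1.87e-05, the smallest that the resamples allow). Without the 2 libraries farthest from the median of Mki67 this r was 0.75. Over all libraries it was 0.84, from 0.79 to 0.90 within the 5 blocks.

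Mki67 and Top2a were also the members that the others followed most. They had the highest median counts of the members as well, 56 and 30, so that counting noise weighs least on them. The part of this in the order was not tested. In the libraries of low B cell level Top2a had r = 0.50 with Ccna2, 0.48 with Bub1, 0.46 with Ccnb1 and 0.45 with Cdk1, and Mki67 had r = 0.48, 0.47, 0.47 and 0.45 with the same genes (rho from 0.40 to 0.48, each with an adjusted permutation p at or near the smallest possible). Leaving out the 2 farthest libraries moved these r by at most 0.03. Cdk1 with its activator Ccnb1 was at r = 0.36 (rho = 0.33, adjusted permutation p = 1.61e-05 and 1.87e-05). Cdk1 was at r = 0.20 with Ccnb2 and at 0.32 with Ccna2.

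The partners of the passenger complex, Birc5 and Aurkb, were at r = 0.26 (rho = 0.25), close to the median pair. Plk1 stood apart in the libraries of low B cell level, with a median r of 0.14 with the other members, and Ccnb2 came next, with 0.19. The 2 pairs that did not pass were Aurkb with Plk1 (r = 0.02, rho = 0.01, adjusted permutation p = 0.653 and 0.793) and Ccnb2 with Aurkb (r = 0.03, rho = 0.03, adjusted permutation p = 0.510 and 0.523). Ccnb1 with Ccnb2 passed by r (0.12, adjusted permutation p = 0.0132) and not by rho (0.08, adjusted permutation p = 0.117). The 2 B-type cyclins were thus among the least alike pairs of members. Their median counts were 4 for Ccnb1 and 12 for Ccnb2, and the part of such low counts in this r was not tested.

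In the 35 libraries of high B cell level all 45 pairs passed, with a median r of 0.71 and a range from 0.45 (Ccnb2 with Plk1) to 0.96 (Mki67 with Top2a). Aurkb with Plk1, at 0.02 in those of low B cell level, was at 0.82 in the 35. The levels were also higher in the 35, as given above, and the part of this in the values of r was not tested. Over all libraries the median r was 0.40, with 45 of 45 pairs passing, and it was 0.50 in females and 0.27 in males. In those of low B cell level it was 0.30 in females, with 33 of 45 pairs passing, and 0.23 in males, with 39 passing, and the difference between the sexes was not tested.

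**Figure D4:**
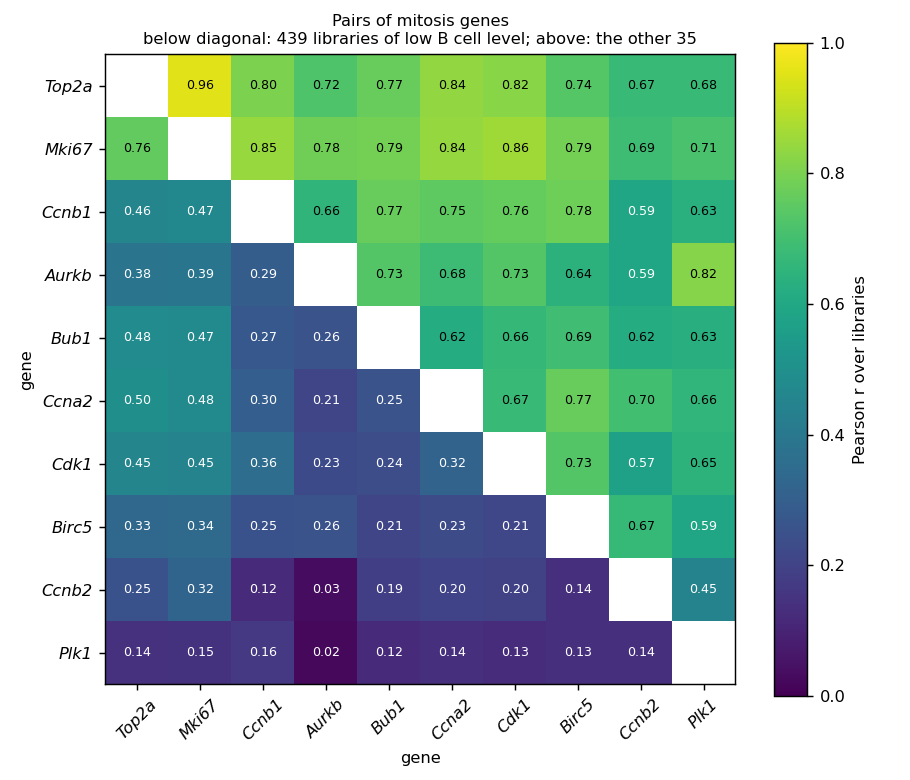
Pearson r over libraries for each pair of members on log2 CPM after sex and generation, within the libraries of low B cell level (below the diagonal) and the 35 of high B cell level (above it). Mki67 and Top2a are the closest pair on both sides, and values above the diagonal run from 0.45 to 0.96 against 0.02 to 0.76 below it.

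Which cells the members follow was asked with 19 lists of cell type markers. The level of a list is the mean standardised residual of its genes, and r and permutation p were taken for each of the 190 pairs of member and list. The share of all genes that pass against a list was not computed in any set of libraries. Counts of members that pass are therefore not read as particular to the members. In the libraries of low B cell level, the lists that all 10 members followed were macrophage markers (r from 0.12 for Plk1 to 0.39 for Top2a) and fibro-adipogenic progenitor and fibroblast markers (0.14 for Aurkb to 0.39 for Top2a). By sex within this set, macrophage markers passed for 10 members in females and 6 in males, and fibroblast markers for 7 in each. Over all libraries, fibroblast markers passed for 0 of 10 by permutation test within blocks 1 and 4, and macrophage markers for 6 and 4. Mki67 with the macrophage level was at r = 0.38 and rho = 0.38 (adjusted permutation p = 0.000106 and 0.000112), and at r = 0.40 without the 2 farthest libraries. Mki67 with the fibroblast level was at r = 0.37 and rho = 0.35, with the same adjusted permutation p, and at 0.37 without the 2 farthest libraries. Cdk1 with the macrophage level was at r = 0.28 (rho = 0.29), and with the fibroblast level at 0.21 (rho = 0.20).

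Dendritic cell and neutrophil markers each passed for 8 of 10 members in the libraries of low B cell level, with highest r of 0.31 and 0.23, and T cell markers for 7 of 10, with r up to 0.29 for Top2a. B cell markers passed by r for Mki67 alone (r = 0.12, adjusted permutation p = 0.0294), and not by rho (0.11, adjusted permutation p = 0.0683). Satellite cell and myoblast markers passed by r for Ccnb1 alone (r = 0.13, rho = 0.11, adjusted permutation p = 0.0139 and 0.0432), and by rho for Plk1 as well (r = 0.08, rho = 0.13, adjusted permutation p = 0.162 and 0.0155). Endothelial markers passed for 3 of 10, up to 0.20 for Cdk1, and white adipocyte and erythroid markers for 4 each, up to 0.20 and 0.14, both for Cdk1. Fast muscle fibre genes went the other way and passed below 0 for 7 of 10 members, at r = -0.23 for Top2a and for Mki67 (rho = -0.26 and -0.25), while slow fibre genes passed for 0 of 10 by permutation test, with r from -0.08 to 0.01. The skin epithelium level, which rests on the 2 genes Krt10 and Dsp, passed by r for 6 of 10 members and by rho for 0, and had r = 0.17 with Mki67, but rho was 0.03 (adjusted permutation p = 0.701), and r fell to 0.10 without 2 libraries, so this relation rested on few libraries.

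In the 35 libraries of high B cell level the members followed the markers of several kinds of leukocyte. Mki67 with the B cell level was at r = 0.84 and Top2a at 0.86, and all 10 members passed, down to 0.58 for Aurkb. For dendritic cell markers r ran from 0.63 to 0.82, for plasma cell markers from 0.42 to 0.78, and for T cell markers from 0.55 to 0.79. Neutrophil markers passed for all 10 members as well, with r from 0.43 to 0.70 and a median of 0.61, which was also the median for T cell markers. Macrophage markers passed for 8 of 10 (median r = 0.50), mast cell markers for 8 (0.41) and white adipocyte markers for 7 (0.44). Fibroblast markers passed for 0 of 10 members by permutation test in these libraries, with r from -0.19 to 0.06, and tendon cell markers passed below 0 for all 10, from -0.66 to -0.47. Marker lists of leukocytes share libraries and in part cell types, so the order among them is a description.

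Taken jointly, the 19 marker levels accounted for 60.1% of the variance of the mean of the 10 members over all libraries and 39.01% in those of low B cell level (58.4% and 36.2% adjusted for the number of lists), as a description with no test. By gene the joint share in those of low B cell level was 36.6% for Top2a and 35.5% for Mki67, 19.8% for Cdk1, close to that for Ccnb1 and Ccna2, and less for the rest, down to 6.97% for Plk1. The adjusted shares were 33.7% for Top2a and 32.6% for Mki67, but only 5.48% for Aurkb and 2.75% for Plk1. The largest standardised coefficient for the mean of the members was that of the T cell level over all libraries (0.36) and that of the fibroblast level in those of low B cell level (0.34), where the skin epithelium level came next (0.25). The skin level passed by rho for 0 of 10 members in that set, as given above, so its coefficient may rest on few libraries.

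**Figure D5:**
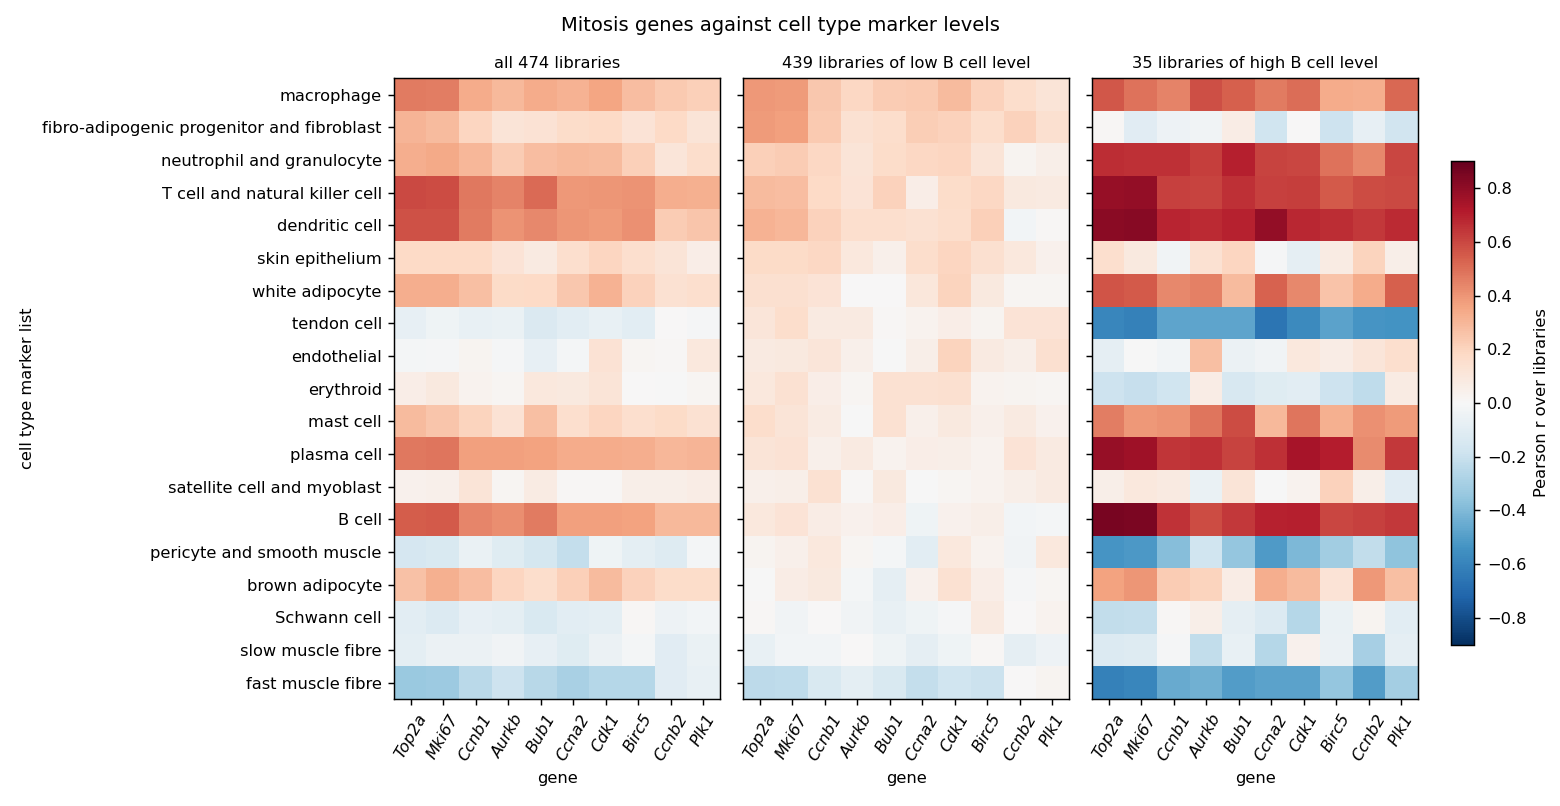
Pearson r over libraries of each member (columns) with the level of each of 19 marker lists (rows), for all libraries, those of low and the 35 of high B cell level, with red above 0 and blue below. In the middle panel the macrophage and fibroblast rows are red for all 10 members, while the B cell row lies between -0.04 and 0.12 there and between 0.58 and 0.86 in the right panel.

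The genes whose pattern was most like that of the members depended on the same 35 libraries. Likeness was measured as Pearson r with the mean standardised residual of the 10 members, with no test. Over all libraries, 7% of the other genes had r of at least 0.3, and the 20 closest were Lcp1 (0.72), Tmsb4x (0.72), Hcls1 (0.72), Ptprc (0.71), Nckap1l (0.71), Il2rg, Arhgap30, Arhgdib, Coro1a, Laptm5, Dock2, Arhgap45, Cd84, Shisa5, Ikzf1, Itgb2, Psd4, Syk, Ptpn6 and Cd53 (0.66). Many of these are known from leukocytes, such as the actin bundler Lcp1 and the integrin chain Itgb2. For single members the 3 closest genes were drawn from much the same set, as Lcp1, Ptprc and Hcls1 for Mki67 (0.68 to 0.67) and Tmsb4x, Lcp1 and Ptprc for Top2a. They were Tmsb4x, Hcls1 and Ctsh for Cdk1, Hcls1, Nckap1l and Tmsb4x for Ccnb1, and Hcls1, Tmsb10 and Rassf5 for Ccnb2. For Ccna2 they were Tmsb4x, Itgb2 and Lcp1, for Birc5 Lcp1, Ptprc and Tmsb4x, and for Bub1 Lcp1, Ptprc and Il2rg. Aurkb was closest to Arhgap45, Coro1a and Lcp1, and Plk1 to Fmnl1, Rassf2 and Chd3, at 0.39 to 0.37.

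In the libraries of low B cell level 0.978% of the other genes had r of at least 0.3, and the closest were 2 mitosis genes, Cenpf (0.52), a kinetochore protein, and Ckap2l (0.47), a spindle protein. This list was made after the division was seen. Next came Col5a2 (0.47), Ptprc (0.46), Tmsb4x (0.45), Col3a1 (0.45), Pbk (0.45) and Lcp1 (0.45), so that mitosis, collagen and leukocyte genes stood side by side. Within the marker lists, the gene closest to the members over all libraries was Lck among T cell genes (0.60), Vcam1 among satellite cell genes (0.59), Cr2 among B cell genes (0.56), Ccr7 among dendritic cell genes (0.56), Igkc among plasma cell genes (0.54), Cd68 among macrophage genes (0.44), Kit among mast cell genes (0.43), Col3a1 among fibroblast genes (0.39) and Cxcr2 among neutrophil genes (0.37). It was Fabp4 for white adipocytes (0.36), Otop1 for brown adipocytes (0.31), Dsp for skin (0.24), Pecam1 for endothelium (0.24) and Slc4a1 for red cells (0.10). The closest in the remaining lists were at 0.04 or below, with Tnmd for tendon, Cspg4 for pericytes, Mag for Schwann cells, Atp2a2 for slow fibres and Myh1 for fast fibres. In those of low B cell level, the T cell list had a highest r of 0.25 (Trac) and the B cell list one of 0.08 (Cd79a), whereas Col3a1 was at 0.45 and Adgre1, a macrophage receptor, at 0.38. Vcam1, which is also made by endothelial and stromal cells, fell from 0.59 to 0.23. These are single genes, and a closest gene can stand apart from its list. Over all libraries the median r was -0.04 for the 11 satellite cell genes, of which Vcam1 alone reached 0.3, and -0.02 for the 12 endothelial genes, of which 0 did. It was 0.56 for T cell genes, 0.54 for B cell genes and 0.36 for macrophage genes. Pax7, which defines satellite cells, had medians of 1.41 CPM in the 35 and 1.80 CPM in those of low B cell level, against 7.02 and 3.16 CPM for Vcam1.

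Other cell cycle genes moved with the members only in part. Of 40 other mitosis genes, 30 had r of at least 0.3 with the mean of the members over all libraries and 20 in those of low B cell level, against 7% and 0.978% of all other genes. Between the sexes, 22 of these 40 were lower in males, 5 higher and 13 did not pass, with a median difference of -0.19, where 30.6% of all genes were lower and 24.4% higher. Without the 35 libraries 8 were lower, 6 higher and 26 did not pass, with a median of -0.03, where 27.2% and 24.6% of all genes were lower and higher. The largest falls were in Bub1b (-0.70 ± 0.15), a checkpoint kinase, Hmmr (-0.70 ± 0.13) and Knl1 (-0.58 ± 0.14). Their values in those of low B cell level were -0.22 (adjusted p = 0.167, edgeR), -0.31 (adjusted p = 0.0237, edgeR) and -0.21 (adjusted p = 0.175, edgeR). The largest rises were in Tpx2 (0.92 ± 0.06), which activates Aurora A, Aurka (0.42 ± 0.07), Aurora A itself, and Ube2c (0.29 ± 0.04), a ubiquitin carrier of mitotic exit (log2 male minus female ± SE). In those of low B cell level these 3 were at 0.98, 0.43 and 0.29. Tpx2, Aurka and Ube2c hardly moved with the members. Their r with the mean of the members was 0.12, -0.05 and -0.02 over all libraries. In those of low B cell level it was 0.02, -0.06 and -0.02. Tpx2 had medians of 1.95 CPM in females and 3.64 CPM in males, above each member's median.

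DNA replication genes are switched on before mitosis, in S phase. Of 28, 17 were lower in males, 2 higher and 9 did not pass, with a median of -0.12, against 30.6% of all genes lower and 24.4% higher, and 14 were lower and 3 higher in those of low B cell level, against 27.2% and 24.6% of all genes. The largest falls were in Uhrf1 (-0.75 ± 0.09), which guides maintenance methylation, Pole (-0.42 ± 0.04), a DNA polymerase, and Cdt1 (-0.28 ± 0.08), which licenses replication origins, and the rises were Rrm2 (0.30 ± 0.07) and Tyms (0.16 ± 0.02), both of nucleotide synthesis (log2 male minus female ± SE). In those of low B cell level Cdt1 was at -0.03 and did not pass (adjusted p = 0.762, edgeR), while Uhrf1 (-0.60), Pole (-0.41), Rrm2 (0.39) and Tyms (0.17) passed. Over the libraries of low B cell level the replication list passed with Ccna2 alone (r = 0.11, rho = 0.09, adjusted permutation p = 0.0402 and 0.0877), and 0 of its 28 genes had r of at least 0.3 with the mean of the members. In the 35 libraries all 10 members followed it, at r from 0.64 to 0.86.

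Of 9 cyclins and kinases of G1, 4 were lower in males, 1 higher and 4 did not pass, against the same 30.6% and 24.4% of all genes, and the counts were the same in the libraries of low B cell level. The falls were led by Ccne1 (-0.38 ± 0.10), Cdk2 (-0.11 ± 0.02) and the phosphatase Cdc25a (-0.08 ± 0.02), and Ccnd1, cyclin D1, rose (0.21 ± 0.04). In those of low B cell level these were at -0.26, -0.07, -0.09 and 0.23, and all 4 passed. Of 14 transcription factors of the cell cycle, 6 were lower, 3 higher and 5 did not pass, and 5 were lower and 3 higher in those of low B cell level. Both lists are short, and nothing particular to them was read from these counts. E2f2 (-0.41 ± 0.08), E2f1 (-0.40 ± 0.06) and their partner Tfdp1 (-0.32 ± 0.01) fell, and E2f8 (0.57 ± 0.08), Rbl1 (0.18 ± 0.04) and E2f3 (0.11 ± 0.02) rose in males (log2 ± SE), and in those of low B cell level all 6 passed, at -0.34, -0.36, -0.32, 0.62, 0.24 and 0.10. Of 7 inhibitors of cyclin-dependent kinases, 4 were higher in males, 2 lower and 1 did not pass, with the same counts in those of low B cell level. This list is short too, the shares of all genes were those given above, and nothing particular to it was read from the counts. Cdkn2a (1.31 ± 0.18), Cdkn1c (0.66 ± 0.03) and Cdkn2c (0.23 ± 0.03) rose and Cdkn1a (-0.58 ± 0.05) and Cdkn2d (-0.08 ± 0.02) fell (log2 male minus female ± SE), and Cdkn1a was far the most abundant of these 5, with medians of 45.1 CPM in females and 32.7 CPM in males. Cdkn2a was sparse, with medians of 0.0242 CPM in females and 0.0499 CPM in males, near the level of 3 counts, so its fold is uncertain. In those of low B cell level these 5 passed in the same directions, at 1.53, 0.64, 0.25, -0.62 and -0.07. Foxm1, the factor that drives mitosis genes, was the closest of the transcription factors to the members, at r = 0.50 over all libraries and 0.34 in those of low B cell level. Between generations 1 of the 40 other mitosis genes and 1 of the 28 replication genes passed, against 7.56% of all genes.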

How the data were processed

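Polyadenylated RNA of all libraries was sequenced as read pairs. Per their methods, the authors joined both mates and aligned them as single-ended reads to a transcriptome built for the 8 founder strains, estimated expression with EMASE in GBRS, and left out transcripts with too few reads. The deposited values are expected counts per gene and VST scores, which the authors made with DESeq2. The methods also name a regression on sequencing batch, and whether it entered the deposited VST scores was not given in the sources used here, nor were the aligner's version and the use of strand. Start and end equalled those of GENCODE M21 on GRCm38 for 99.2% of genes.

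Expected counts were rounded and tested with edgeR 4.0.16 in R 4.3.3 (filterByExpr with a minimum count of 10, TMM, quasi-likelihood F-test, Benjamini-Hochberg over 18823 genes, threshold 0.05), with generation as covariate for sex, sex for generation, and both for blocks. Blocks are 5 stretches of consecutive library numbers. Limma 3.58.1 on the VST scores and DESeq2 1.42.0 were alternatives, and the edgeR test was tested on simulated data. Correlations used residuals of log2 CPM (prior count 2) after sex and generation, with 2-sided permutation tests of 100000 resamples, whose smallest p is 1e-05, adjusted over 45 pairs or 190 combinations. The number read as generation is an assumption, since the methods name generations 18, 19 and 21 and the titles hold 17 and 23 as well, and wave, a covariate of the study, was not used here. Each library is 1 animal. Total counts were 35.9 to 165.7 M.

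The members and lists were chosen with earlier results of these data known. Named beside the members were the 20 genes with the highest r with their mean, the 3 closest to each member, the closest gene of each marker list, up to 3 rises and 3 falls by sex in each cell cycle list, and genes that check tissue and sex. The genes closest in the libraries of low B cell level, the other genes singled out and the division of libraries by B cell level were chosen after seeing the data.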

Additional observations from a re-analysis of the deposited data

How the results depend on the processing

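Of the 10 members lower in males over all libraries, 3 were so without the 35 libraries of high B cell level (3 also with the genes of the full table), 4 without the 5% of highest B cell level, and 4 by limma on the VST scores without the 35, an alternative added after seeing the data. With marker levels as covariates 0 were, and 1 without the 35 as well. With a mean of at least 1 CPM, only Mki67 was tested and was lower (1). Within generations 17, 18, 19, 21 and 23 the counts were 0, 4, 0, 2 and 6 of 5 to 7 members tested, and within blocks 1 to 5 they were 2, 0, 1, 5 and 2 of 10, with fewer libraries in each. Leaving out 1 generation in turn gave 9 to 10, with 9 tested without generation 17. For the fits within generations or blocks, without the 5% or without 1 generation, the share of all genes lower in males was not counted. The same holds for marker levels as covariates without the 35 and for the filter at 1 CPM. These counts are therefore not read against all genes. Top2a turned to 0.016 with marker levels as covariates (0.0135 without the 35), and Plk1 to 0.0435 within generation 19; the causes were not tested. Between blocks, 7 members passed, but 1 by limma on the VST scores and 1 without the 35. Of 45 pairs, 22 passed within block 1. Of 190 combinations of member and marker list, 70% passed over all libraries and 55.8% within block 2, against 81 (42.6%) in males, 40, 73, 44 and 80 within blocks 1, 3, 4 and 5, 86 without the 5% of highest B cell level and 79 without the 35, where 46 passed in females and 46 in males. Generation and its interaction with sex gave 0 of the members in every setting run. No paired analysis was possible because each animal gave 1 library. Bub1, Ccnb1 and Aurkb had medians of 2, 4 and 6 counts, which limits what could be detected for them.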
